A study of Mus musculus with 6 samples.

Results

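The NF-κB family and its immediate regulators were followed in mouse pre-B cells in which miR-26 activity had been raised or lowered. The set holds 10 genes, chosen by name: the subunits Nfkb1, Nfkb2, Rel, Rela and Relb, the inhibitors Nfkbia, Nfkbib and Nfkbie, the deubiquitinase Tnfaip3 and the kinase Ikbkb. The array design names 34797 genes in all and carries 15 probes for these 10, of 55681 probes. Each probe was read separately. The cells were the line 1676, pre-B cells of SLP-65-/- LAT-/- mice, which lack both adaptor proteins, are grown out of bone marrow and were kept here in an excess of the growth factor IL-7. Retroviral vectors were introduced and transduced cells were selected with puromycin. The control cells carried the control vector, the miR-26a cells a vector for hsa-miR-26a-2, and the sponge cells a transcript that sequesters the miR-26 family. The genotype, IL-7, transduction and puromycin were thus common to all 3 groups. There were 2 arrays per group, from separately made transduced cells, numbered replicate 1 and 2 in the labels. Equal numbers were taken as the same experiment, because the methods normalize to the control of each experiment. For the control arrays this pairing may be in doubt, as said under the processing. The sponge arrays were compared with the control vector, and no array of a scrambled sponge was analysed here. All arrays lay on 1 slide, each group in a row of its own and each experiment in a column of its own, so group and slide row, and experiment and slide column, cannot be told apart.

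NF-κB proteins are dimers of Rel family subunits that bind DNA. In resting cells inhibitors of the IκB type hold them in the cytoplasm. In the canonical route the IKK complex, with the kinase Ikbkb (IKK beta), marks the IκB proteins for destruction and frees dimers of Rela or Rel with the Nfkb1 product. In the non-canonical route, used by receptors such as the BAFF receptor of B cells, the kinase Map3k14 (NIK) is no longer degraded through Traf3 and the precursor made from Nfkb2 is cut, so that Relb dimers enter the nucleus. Several inhibitor genes are themselves NF-κB targets, which closes a feedback loop. An mRNA level does not report on the nuclear activity of these proteins.

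The miRNAs that were raised or sequestered share 1 seed, which is why both are shown. Capitals mark bases 2 to 8, the seed. The mature sequences are those of RefSeq, with GRCm38.p6 positions.
mmu-miR-26a-5p: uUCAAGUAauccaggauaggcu
mmu-miR-26b-5p: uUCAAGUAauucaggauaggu
The first is encoded at chr9:119031811-119031832 and chr10:126995543-126995564 and the second at chr1:74394324-74394344, all on the plus strand. The word TACTTGA, which pairs with the whole seed, was found in 0 of the 15 member probes and in 0.431% of all probes of the design, read on the transcript strand. The word ACTTGAA was likewise in 0 of 15, against 0.7% of all probes. A probe covers only 60 bases, so these counts say nothing of the rest of the transcripts.

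Probes of 3 members with a called difference below are shown 5′ to 3′ in the sense of the transcript, to say which stretch of each transcript was measured. They are in lower case with no part singled out.
Nfkb2 (A_51_P454217): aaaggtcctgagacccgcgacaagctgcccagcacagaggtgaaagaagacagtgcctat
Nfkb1 probe 1 (A_55_P1968743): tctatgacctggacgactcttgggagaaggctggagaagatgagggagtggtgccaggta
Nfkbib probe 2 (A_55_P1989733): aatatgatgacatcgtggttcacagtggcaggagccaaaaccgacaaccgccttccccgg
On the mm9 build of the array design, the Nfkb2 probe lies at chr19:46386146-46386285 on the plus strand, where its 60 bases are spread over 140 bases of genome, the mark of an exon junction. Nfkb1 probe 1 lies at chr3:135254550-135254609 and Nfkbib probe 2 at chr7:29544160-29544219, both on the minus strand and both in 1 genomic block. The exon and UTR annotation of mm9 was not used here. Probes of 1 gene are numbered below from the 5′ to the 3′ end of the gene.

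Upstream sequence was at hand for 7 of the 10 genes. The degenerate NF-κB binding motif of 10 bases, searched by its consensus on both strands, was in a window from 250 bases before to 50 after an annotated start for 5 of these 7, namely Nfkb2, Rel, Nfkbia, Nfkbie and Tnfaip3. Over all genes with a window the share was 9.55%, and over all windows 8.46%. The windows of Rela and Nfkbib did not hold the motif, and Nfkb1, Relb and Ikbkb had no window here. Stretches of 60 bases (RefSeq, GRCm38.p6) are shown for Nfkb2, of the genes called lower with miR-26a the one with a window here, and for the inhibitor Nfkbia, with the motif matches in capitals and overlapping matches joined.
Nfkb2: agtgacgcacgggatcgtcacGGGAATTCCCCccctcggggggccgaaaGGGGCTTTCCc
Nfkbia: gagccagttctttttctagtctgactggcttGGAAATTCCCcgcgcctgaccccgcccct
The Nfkb2 stretch is chr19:46304677-46304736 on the plus strand and the Nfkbia stretch chr12:55492648-55492707 on the minus strand. Each is the 60 bases just before an annotated start. A match is a match of letters and not a site shown to be bound in these cells.

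The scanner software placed 14 of the 15 probes well above background on each of the 6 arrays, and these 14, which stand for 9 genes, were tested. The exception was Rel, the c-Rel subunit, whose only probe was not well above background on any array and was not tested, with log2 signals of 1.27 to 1.87. The design places this 60-base probe on only 15 bases of mm9, so its position is not settled here, and the low signal does not show that the transcript was absent. Signals are quantile-normalized log2 intensities, and since probes differ in how they hybridise, no level is compared between probes. A difference was called at a Benjamini-Hochberg adjusted p under 0.05 over all 20168 probes tested, in a limma fit over the 6 arrays with the experiment as a block. The fit took out the shift between the 2 experiments that all groups shared. The p-values rest on the spread that remained, pooled over the groups and moderated across probes. In whole-culture RNA, fewer cells with a transcript and less of it per cell cannot be told apart. Between 28823 and 29800 of 59305 spots per array were well above background. No member spot was saturated or flagged.

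The labelled cell type was checked against its markers. All 9 probes of 7 B lineage genes, among them Cd79a, Pax5, Ebf1 and Vpreb1, were well above background on every array, and 0 of the 9 were called with miR-26a or with the sponge against control. Against the sponge, 1 Pax5 probe (A_51_P122855) was lower with miR-26a (log2 difference −0.36, limma adjusted p = 0.028). Of 5 stromal marker probes 4 were above background on 0 arrays, and the summed stromal signal was 26 to 38 intensity units. Markers of other blood cells were mixed. On all 6 arrays 6 of 11 myeloid probes stood well above background, among them probes of Itgam (log2 11.30 to 11.99 on A_55_P1977934) and Elane (7.78 to 8.23), and those of Lyz2 and Mpo on at most 1. Likewise 3 of 7 T cell probes stood above it on each array, among them Cd3e (8.70 to 9.11), and those of Cd3g and Cd8a on at most 1. Some markers moved with miR-26a: both Cr2 probes were higher (log2 difference 0.91 and 1.18), both H2-Ab1 probes were lower (−0.71 and −0.82) and 1 of 3 Itgam probes was lower (−0.82), all at adjusted p under 0.05. The summed signal of the 7 mature B marker probes was 22096 to 25518 in control, 13075 to 16494 in miR-26a and 17981 to 25730 in sponge arrays. H2-Ab1 made up most of this sum, and the other 5 probes together gave 516 to 605, 942 to 1068 and 488 to 608. That of the 11 myeloid probes was 3924 to 5035, 4127 to 4828 and 3295 to 4747, and that of the 7 T cell probes 1414 to 1434, 1311 to 1436 and 1079 to 1225, in the same order. Their part in the results below was not tested. The probe of Blnk, which encodes SLP-65, gave a strong signal in every group and was lower with miR-26a (log2 difference −0.49, adjusted p = 0.0275). The Lat probe read 10.10 to 10.29 and was also well above background on all 6 arrays. Where the deletions lie relative to these probes is not known here.

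With miR-26a, the Nfkb2 probe and 1 Relb probe were called lower than in control cells. Both genes encode subunits of the non-canonical route. The other 2 Relb probes were not called, and both calls were lost in most alternative settings. None of the tested canonical subunits, inhibitors or IKK beta passed the test in this comparison. In all, 2 of 14 member probes were called lower and 0 higher. Over all probes tested, 5.14% were called lower and 4.5% higher. The median log2 difference of the 14 probes was 0.01, as was that of all probes tested.

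**Figure D1:**
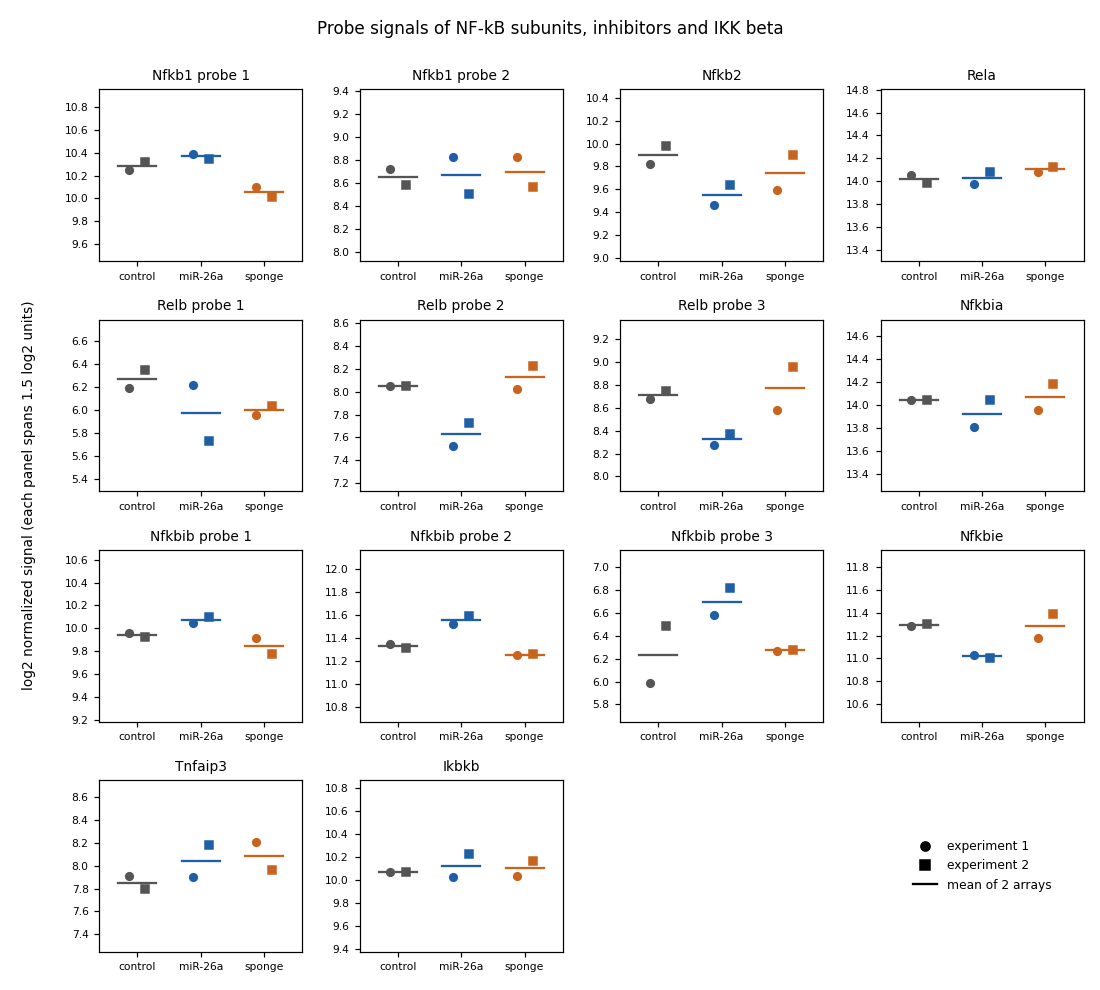
Quantile-normalized log2 signal (y axis, 1.5 log2 units in every panel) of the 14 tested member probes in control, miR-26a and sponge cells (x axis). Circles are experiment 1, squares experiment 2 and lines the mean of 2 arrays. Both miR-26a arrays lie below all other arrays for Relb probes 2 and 3 and Nfkbie. They lie above all others for Nfkb1 probe 1 and the 3 Nfkbib probes. Of these probes only Relb probe 2 was called against control. How often probes separate in this way over the whole array was not counted.

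Nfkb2 encodes the p100 precursor of the p52 subunit. Its log2 signal was 9.82 and 9.98 on the control arrays, 9.47 and 9.64 on the miR-26a arrays and 9.59 and 9.90 on the sponge arrays. The miR-26a arrays lay below both control arrays, and the sponge arrays overlapped with both other groups. The log2 difference of miR-26a from control was −0.34 ± 0.07 (SE, n = 2 per group), so the signal fell by 21.2%, with a limma adjusted p of 0.0458. Without the experiment as a block the adjusted p was above the threshold, and the call was kept in 4 of 16 alternative settings and in none that left out an array.

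Relb encodes the partner of p52. Its probe 2 (A_55_P2168736) read 8.05 and 8.05 in control cells, 7.53 and 7.73 with miR-26a and 8.02 and 8.23 with the sponge. Only the miR-26a arrays stood apart, below the rest. The difference from control was −0.42 ± 0.08 (SE, n = 2 per group), so the signal fell by 25.2%, with a limma adjusted p of 0.0378, and the call was kept in 6 of 16 settings and in none that left out an array. Probe 3 (A_51_P389751) shares 9 bases of genome with probe 2, at chr7:20191722-20191781 against chr7:20191773-20191832. It read 8.68 and 8.75 in control, 8.28 and 8.38 with miR-26a and 8.58 and 8.96 with the sponge. The miR-26a arrays were again the lowest, but the difference of −0.39 did not pass the test (adjusted p = 0.0679). Probe 1 (A_55_P2168741), designed on another transcript model and placed at chr7:20203058-20203117, had the miR-26a arrays at 6.22 and 5.73 and the control arrays at 6.19 and 6.35. These groups overlapped, and the difference of −0.30 had an adjusted p of 0.308. It was −0.60 without miR-26a replicate 1 and 0.0028 without miR-26a replicate 2.

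Of the canonical subunits, Rela and Nfkb1 were tested, and their intervals for miR-26a against control included 0. Rela, the p65 subunit, read 14.06 and 13.99 in control, 13.98 and 14.08 with miR-26a and 14.08 and 14.12 with the sponge. The log2 difference of miR-26a from control was 0.01 with a 95% interval of −0.18 to 0.20. Nfkb1 encodes the p105 precursor of p50. Its probe 1 read 10.25 and 10.32 in control and 10.39 and 10.35 with miR-26a, a difference of 0.08 (−0.10 to 0.27). Its probe 2 (A_55_P1968738) gave 0.02 (−0.17 to 0.21), with overlapping groups.

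Among the inhibitors the directions were mixed, and none passed the test against control. Nfkbia, the feedback inhibitor IκB alpha, read 14.04 and 14.05 in control and 13.81 and 14.04 with miR-26a, a difference of −0.12 (−0.33 to 0.09). Nfkbie, IκB epsilon, read 11.29 and 11.30 in control, 11.03 and 11.01 with miR-26a and 11.18 and 11.39 with the sponge. Both miR-26a arrays were the lowest, with a difference of −0.28 and an adjusted p of 0.103. Nfkbib, IκB beta, had the opposite sign on all 3 of its probes, with log2 differences of 0.13, 0.23 and 0.47 from probe 1 to probe 3 and adjusted p of 0.355, 0.099 and 0.0724. For probe 3 (A_55_P2051666) the control arrays read 5.98 and 6.48 and lay further apart than the group means.

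Tnfaip3, or A20, removes ubiquitin chains upstream of IKK and is a known brake on the pathway. Its log2 signal was 7.91 and 7.79 in control, 7.90 and 8.18 with miR-26a and 8.20 and 7.96 with the sponge. The miR-26a and control arrays overlapped, and the difference of 0.19 had an interval from −0.14 to 0.52. Ikbkb read 10.07 and 10.07 in control, 10.02 and 10.22 with miR-26a and 10.04 and 10.17 with the sponge. Its groups overlapped in every comparison, and the miR-26a difference was 0.05 (−0.14 to 0.25).

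**Figure D2:**
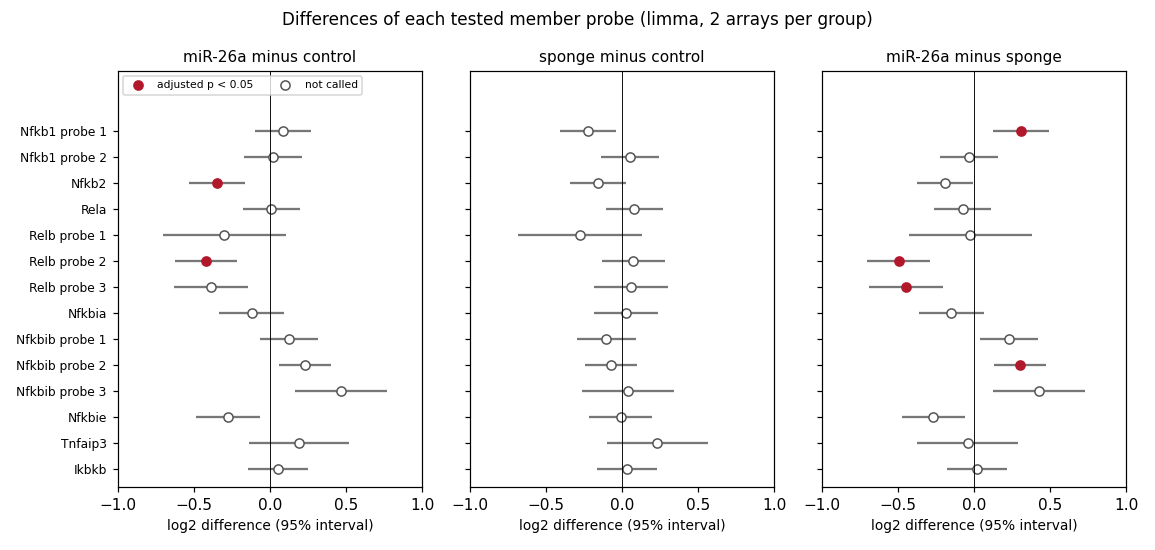
Log2 differences (x axis) of the 14 tested member probes in 3 comparisons, with 95% intervals from the limma fit. Filled points passed an adjusted p of 0.05: 2 for miR-26a against control, 0 for the sponge against control and 4 for miR-26a against the sponge.

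With the sponge, 0 of 14 member probes were called against control, where the calls over all probes made up 0.00992% of those tested, which is 2 probes. At an unadjusted p under 0.05, 1 member probe was lower and 0 higher, against 16.1% of all probes in either direction. That probe was Nfkb1 probe 1, at 10.10 and 10.02 on the sponge arrays. Both lay below the control arrays, by a difference of −0.22 ± 0.07 (SE, n = 2 per group) with a limma adjusted p of 0.267. Nfkb1 probe 2 did not show it, at 8.83 and 8.57 with the sponge and 8.72 and 8.58 in control. The member differences ran from −0.28 (Relb probe 1) to 0.23 (Tnfaip3), and the widest interval reached from −0.68 to 0.13. Rela was at 0.08 (−0.11 to 0.27), Nfkbia at 0.03 (−0.18 to 0.24) and Nfkbie at −0.01 (−0.22 to 0.20). Both comparisons with control use the same 2 control arrays.

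In the direct comparison of miR-26a with the sponge, 4 of 14 member probes were called, 2 lower and 2 higher. Over all probes tested, 8.49% were called lower and 8.28% higher. The lower ones were Relb probe 2, with a log2 difference of −0.49 ± 0.08 (SE, n = 2 per group; limma adjusted p = 0.0182), and Relb probe 3, with −0.44 ± 0.10 (SE; limma adjusted p = 0.0362). These probes overlap in the genome and are not independent readings. Nfkb1 probe 1 was higher by 0.31 ± 0.07 (SE; limma adjusted p = 0.0445), while Nfkb1 probe 2 was at −0.03 (adjusted p = 0.804), so the gene's probes disagreed. Nfkbib probe 2 was higher by 0.30 ± 0.07 (SE; limma adjusted p = 0.0389). It read 11.52 and 11.59 with miR-26a, 11.25 and 11.26 with the sponge and 11.34 and 11.31 in control. Its neighbours, probes 1 and 3, were at 0.23 and 0.43 (adjusted p = 0.0985 and 0.0686). Nfkb2, called against control, was at −0.19 here with an adjusted p of 0.136. Without the experiment as a block, 0 of the 4 were called.

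The rest of the pathway was read from 5 lists with 77 gene names, of which 75 are on the array, and 80 probes of 56 genes were tested. With miR-26a against control, 8 of the 80, of 7 genes, were called lower (10%, against 5.14% of all probes). Another 3, of 2 genes, were called higher (3.75%, against 4.5%). The lists were chosen with earlier results of these data known, so these shares are not an independent test. The median log2 difference of the 80 probes was 0.03 and that of all probes tested 0.01. With the sponge 0 of 80 were called, against 0.00992% of all probes tested. At an unadjusted p under 0.05, 5 were lower and 5 higher, against 16.1% of all probes in either direction. Without the experiment as a block the miR-26a count was 2, and without either control array it was 0 or 1.

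Of 9 tested receptor probes, both of Tnfrsf13c, the BAFF receptor that feeds the non-canonical route, were called lower. They made up 22.2% of the 9, against 5.14% of all probes tested, and belong to 1 gene. Tnfrsf13c probe 2 (A_55_P2117614) read 10.40 and 10.63 in control, 9.36 and 9.72 with miR-26a and 10.60 and 10.85 with the sponge. Probe 1 (A_55_P2117623) read 7.22 and 7.44, 6.36 and 6.58, and 7.17 and 7.45 in the same order. The miR-26a arrays stood below all others on both probes, with differences from control of −0.98 and −0.86 (limma adjusted p = 0.0047 and 0.00517).

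Of the adaptors and ligases, 1 of 29 tested probes was called, as higher (3.45%, against 4.5% of all probes tested). It belongs to Traf3, which keeps NIK low, and read 11.28 and 11.19 in control, 11.82 and 11.78 with miR-26a and 11.40 and 11.17 with the sponge. The miR-26a arrays were the highest, by 0.57 over control (limma adjusted p = 0.0153). Map3k14 and Chuk, the kinases NIK and IKK alpha of the same route, were looked up after these values were seen. They were not called, at 0.10 (adjusted p = 0.501) and 0.12 (adjusted p = 0.35). Among 13 tested probes of upstream kinases the only call was 1 of 2 Ikbkg probes, as lower (7.69%, against 5.14% of all probes tested). Ikbkg, or NEMO, is the regulatory subunit of IKK, and its probe A_51_P260300 was at −0.49 (limma adjusted p = 0.026) while A_55_P2050652, 15 bases away, was at 0.10 (adjusted p = 0.464).

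Of atypical IκB proteins and of brakes on the pathway, 15 probes were tested. Of these, 3 were called lower (20%, against 5.14% of all probes tested) and 2 higher (13.3%, against 4.5%). The lower ones were Nfkbiz, a nuclear IκB protein (−0.36), Cyld, a deubiquitinase (−0.38 on probe 2, and −0.29 with adjusted p = 0.0749 on probe 1), and Tnip1, an A20-binding protein (−0.34 on probe 1, and −0.29 with adjusted p = 0.0642 on probe 2). The higher ones were both probes of Tnip2, another A20-binding protein, at 0.48 and 0.57 (limma adjusted p = 0.0155 and 0.0107). These probes share 34 bases of genome and are not independent readings. Tnip2 probe 2 (A_66_P125734) read 7.78 and 7.59 in control, 8.32 and 8.19 with miR-26a and 8.05 and 7.90 with the sponge, so the sponge arrays lay between the other groups.

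Of 14 tested probes of NF-κB target genes, 2 were called, both lower (14.3%, against 5.14% of all probes tested). Irf4, a transcription factor of B cells, read 11.44 and 11.69 in control, 10.24 and 10.51 with miR-26a and 11.19 and 11.69 with the sponge, a difference of −1.19 from control (limma adjusted p = 0.00481). Il2ra, the alpha chain of the IL-2 receptor, read 10.41 and 10.41, 9.73 and 9.61, and 10.27 and 10.52 in the same order, a difference of −0.74 (limma adjusted p = 0.0155). Nfkb2, Relb and the inhibitor genes can also be NF-κB targets and were counted with the members.

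**Figure D3:**
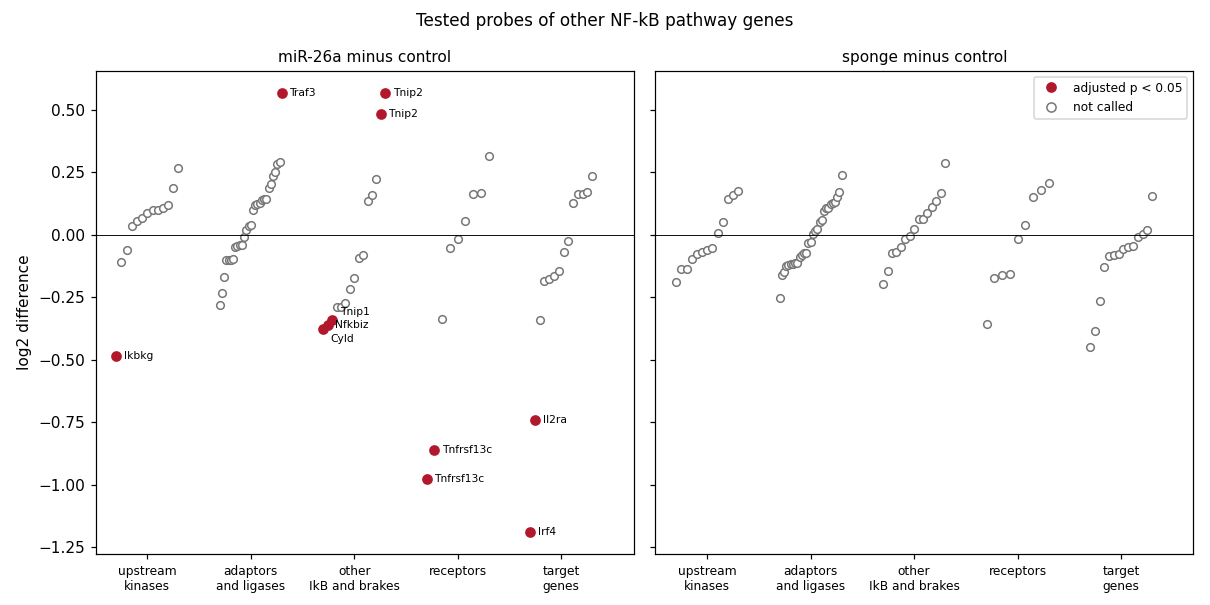
Log2 differences from control (y axis) of the 80 tested probes in 5 lists of further pathway genes (x axis), ordered by size within each list. Filled, named points passed an adjusted p of 0.05: 11 with miR-26a and 0 with the sponge.

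Against the sponge, 9 of the 80 pathway probes, of 8 genes, were called lower with miR-26a (11.2%, against 8.49% of all probes tested). Another 10, of 9 genes, were called higher (12.5%, against 8.28%). The 10 genes with the smallest adjusted p included Tnfrsf13c, Irf4, Il2ra, Traf3, Tnip1, Nfkbiz and Cyld, each with the sign it had against control. The others were Gadd45b, a stress-response gene and NF-κB target, at 0.55, the Toll-like receptor genes Tlr7, at 0.52, and Tlr2, at −0.52. The Tlr7 value is from probe A_55_P2050932. Its probes A_55_P2129046 and A_55_P2129047 were well above background on 0 arrays and were not tested. Against control, Tlr7 was called neither with miR-26a (0.17, limma adjusted p = 0.283) nor with the sponge (−0.36, limma adjusted p = 0.221). Tlr2 was not called with miR-26a either (−0.34, limma adjusted p = 0.0584). Gadd45b read 10.45 and 10.31 with miR-26a, 9.81 and 9.84 with the sponge and 10.22 and 10.20 in control. For Gadd45b the sponge arrays were the lowest, and neither miR-26a (0.17) nor the sponge (−0.38, limma adjusted p = 0.218) was called against control.

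**Figure D4:**
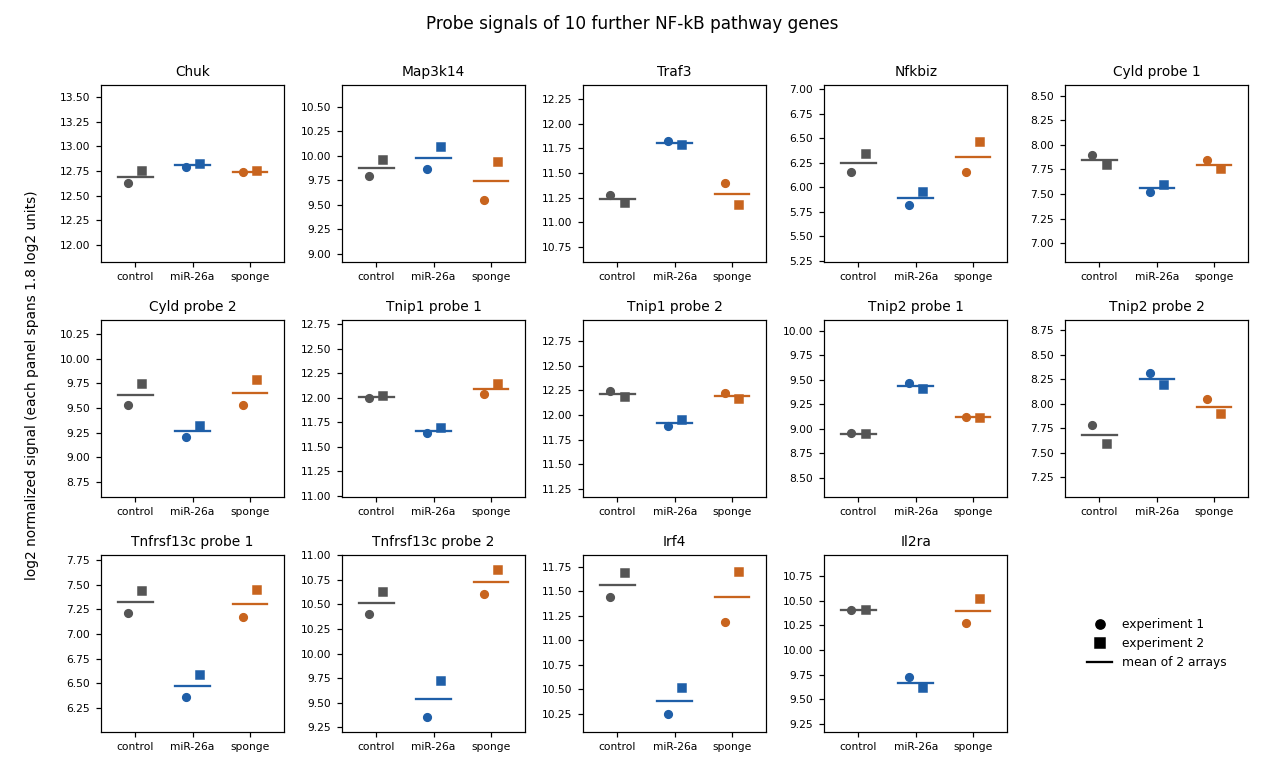
Quantile-normalized log2 signal (y axis, 1.8 log2 units in every panel) of 14 probes of 10 further pathway genes by group (x axis): the named genes called with miR-26a against control except Ikbkg, and Chuk and Map3k14, which were not called. Circles are experiment 1, squares experiment 2 and lines the mean of 2 arrays. The miR-26a arrays are the lowest on both probes each of Tnfrsf13c, Cyld and Tnip1 and on Nfkbiz, Irf4 and Il2ra. They are the highest for Traf3, both Tnip2 probes and Chuk. Of these, Cyld probe 1, Tnip1 probe 2 and Chuk were not called against control. How often probes separate in this way over the whole array was not counted.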

How the data were processed

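RNA of 6 cultures was labelled with Cy3 and hybridised to 1-colour Agilent mouse arrays. The authors deposited scanner output, in which intensity is a background-subtracted processed signal per spot, made with Agilent Feature Extraction (10.7.1.1 per the labels, 10.7.3.1 per the file headers). The authors also deposited a table of quantile-normalized intensity. Its values are on a linear scale, and log2 was taken here. It served as an alternative. Groups and replicate numbers came from the labels.

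Control spots were left out. Log2 of the processed signals was taken, quantile normalization was run over all arrays, and spots of one probe were averaged. Flagged spots were left out of this average, except where all spots of a probe were flagged. Probes above 50 on at least 4 arrays and well above background on at least 1 were tested with limma 3.58.1 in R 4.3.3, with the experiment as a block, because the methods normalize to the control of each experiment. Arrays of the same number deviated together (r = 0.38, 0.59 and 0.45 across probes for the 3 pairs of groups). Titles of the control samples also name other samples, so these arrays may stem from an earlier series, in which case the shared experiment number would be in doubt. The fit was tested on simulated data for bias and false calls, and many added changes were missed. Tables and plots were made in Python 3.11.15 with pandas 2.3.3 and matplotlib 3.10.9. Array number limits the precision, with 2 per group.

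The members and the pathway and marker lists were chosen with earlier results of these data known. One further marker gene of the B lineage list is not reported here. Every member probe was named. Of the pathway lists, genes with a called probe were named, up to 10 per comparison by adjusted p. Alternatives were no block, 75th percentile scaling, normexp correction (offset 50), the deposited table, other filters, the methods' t-test, a test of the 2 log ratios, array weights and leaving out each array.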

Additional observations from a re-analysis of the deposited data

How the results depend on the processing

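Of the 42 member differences, 16 changed sign under some alternative. None of these 16 was called as reported, and 1 was called under an alternative: Relb probe 1 with miR-26a against control was called at −0.60 without miR-26a replicate 1 and was at 0.0028 without miR-26a replicate 2. The 6 called member differences and the 30 called pathway differences kept their sign in every setting run. With the sponge against control, 0 member and 0 pathway probes were called in every setting. With miR-26a against control, where 2 member and 11 pathway probes were called, the member count was 0 without the replicate block, 1 with 75th percentile scaling, 0 with no filter, 1 with the signal filter on 2 arrays, 0 with the methods' t-test and 0 with the test of the 2 log ratios. Leaving out 1 array gave 0 to 1. The 1 was Relb probe 1, and neither Nfkb2 nor Relb probe 2 was called when any 1 array was left out. The pathway count was 2 without the replicate block, 0 with no filter, 0 with the methods' t-test, 0 with the test of the 2 log ratios and 17 with array weights, and leaving out 1 array gave 0 to 8. The lowest values came without control replicate 1 (0) and control replicate 2 (1). With miR-26a against the sponge, where 4 and 19 were called, the member count was 0 without the block, 2 with 75th percentile scaling, 0 with no filter, 0 with the methods' t-test, 0 with the test of the 2 log ratios and 1 with array weights, and leaving out 1 array gave 0 to 1. The pathway count was 7 without the replicate block, 0 with no filter, 0 with the methods' t-test and 0 with the test of the 2 log ratios, and leaving out 1 array gave 3 to 13, with 4 without sponge replicate 1 and 3 without sponge replicate 2. Over all probes, no filter, the methods' t-test and the test of the 2 log ratios called 0 in every comparison, and without the block 238 were lower and 73 higher with miR-26a against control, in place of 1036 and 908. A group left with 1 array was assumed to vary like the others. With no filter 55681 probes were tested in place of 20168. For the other lost calls the cause was not tested.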
